A study of Mus musculus with 10 samples.

Results

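The CC chemokines Ccl2, Ccl7, Ccl3, Ccl4, Ccl6 and Ccl9 were followed in cultured mouse mast cells given stem cell factor (SCF), transforming growth factor beta (TGF-β) or both. The genes were chosen by name and found by their Ensembl identifiers, as 6 of the 49671 gene rows of the count table, and all 6 passed the filter on low counts. The cells were bone marrow-derived mast cells (BMMCs), a culture in which wild-type C57BL/6 bone marrow grows into mast cells in interleukin 3 (IL-3), and the labels give an age of 6 to 8 weeks. All groups shared IL-3, for 6 to 8 weeks before any stimulus. The stimulated groups were SCF at 100 ng/mL (n = 2 libraries), SCF plus TGF-β at 1 ng/mL (n = 2), SCF plus TGF-β at 10 ng/mL (n = 2), TGF-β without SCF (1 library of 1 ng/mL and 1 of 10 ng/mL), each for 72 h. The remaining group had IL-3 alone (n = 2). The IL-3 concentration is stated as 5 ng/mL for growth but 10 ng/mL in the source names. No SCF dose is stated for the combined treatments, and no time for IL-3 alone. The labels do not tell whether replicates are separate cultures, so the spread behind each p-value may be technical.

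CC chemokines are small secreted proteins that attract leukocytes through G protein-coupled receptors, and mast cells release several of them when activated. Ccl2 and Ccl7 are monocyte chemoattractants, and Ccr2 is a receptor of both. Ccl3 and Ccl4, the macrophage inflammatory proteins 1 alpha and 1 beta, attract macrophages and T cells, and Ccl3 binds Ccr1. Ccl6 and Ccl9 are rodent chemokines that act through Ccr1. SCF is the ligand of the receptor tyrosine kinase Kit, on which mast cell survival depends, and TGF-β is a cytokine that acts through SMAD proteins and restrains many inflammatory genes.

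The 10 full-length (SmartSeq2) libraries held 1237382 to 2323916 counts in genes, with a median of 1708116. Levels are CPM, counts scaled to library size with edgeR's TMM factors, and 3 counts corresponded to 1.26 to 2.55 CPM. Poisson and binomial intervals cover counting error only, since amplified reads were not tied to single molecules by identifiers. All 8 mast cell markers (Kit, Fcer1a, Ms4a2, Cpa3, Tpsb2, Cma1, Hdc and Gata2) had mean levels above 20 CPM. Of 15 macrophage and monocyte markers, none had a mean above 20 CPM and C1qb, C1qc and Marco had no counts in any library. Summed markers of neutrophils reached at most 2.55 CPM, of eosinophils 11.7 CPM and of fibroblasts 3.89 CPM. Lymphocyte markers summed to 3.004 to 12.5 CPM with SCF and at most 0.849 CPM without it. The basophil markers summed to 458 to 702 CPM, of which Mcpt8 had 6.30 to 25.0 CPM in the 6 libraries with SCF, 1.70 and 6.99 CPM with TGF-β alone, and 0.518 and 1.40 CPM in IL-3 alone. It was higher with SCF than in IL-3 alone (2.80 ± 0.84, adjusted p = 0.0449). Of the 3 basophil markers tested there, 1 was higher and 1 lower, where 5.71% of tested genes were higher and 3.46% lower. Prss34 had 2.50 and 4.41 CPM with SCF alone and 14.0 and 15.4 CPM in IL-3 alone. Cd200r3, at 431 to 680 CPM, made up most of the sum. The part of these markers in the chemokine values was not tested. In bulk samples such as these, fewer cells of a type and less RNA per cell cannot be told apart.

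The 6 genes are protein coding and lie on mouse chromosome 11 (GRCm38) in separate stretches. Ccl2 (ENSMUSG00000035385; 82035571 to 82037453, plus strand) and Ccl7 (ENSMUSG00000035373; 82045712 to 82047525, plus strand) stand 8258 bp apart. The other members begin 1525393 bp further on, past 30 protein-coding genes. They are Ccl9 (ENSMUSG00000019122; 83572919 to 83578636, minus strand), Ccl6 (ENSMUSG00000018927; 83587882 to 83593087, minus strand), Ccl3 (ENSMUSG00000000982; 83647844 to 83649355, minus strand) and Ccl4 (ENSMUSG00000018930; 83662584 to 83664683, plus strand). Ccl9 and Ccl6 are 9245 bp apart and Ccl3 and Ccl4 13228 bp apart. The coding sequences were 72.4% identical between Ccl2 and Ccl7, 71.4% between Ccl3 and Ccl4 and 70.6% between Ccl6 and Ccl9. No stretch of 38 bases, the read length, in the transcripts of Ccl2, Ccl7, Ccl3 or Ccl4 also occurred in another gene's transcripts, against 0.627% of such stretches for Ccl6 and 3.09% for Ccl9. The loci of Ccl2 and Ccl6 each overlap a gene on the other strand (Gm17268 for Ccl2 and E230016K23Rik for Ccl6), with no shared exonic base.

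Promoter sequence was at hand for 3 members, from RefSeq on GRCm38.p6, and is shown because Ccl6 and Ccl9 varied alike across the libraries and their neighbour Ccl3 did not. Each window is the 250 bases before the annotated start, 5′ to 3′ on the gene's strand. Ccl9 (chr11:83578637-83578886) and Ccl6 (chr11:83593088-83593337) are printed with capitals for the runs of at least 10 bases that both windows share. For Ccl3 (chr11:83649379-83649628) capitals mark an ETS core (on the other strand) and a C/EBP match, but not its NFAT core matches.
Ccl9: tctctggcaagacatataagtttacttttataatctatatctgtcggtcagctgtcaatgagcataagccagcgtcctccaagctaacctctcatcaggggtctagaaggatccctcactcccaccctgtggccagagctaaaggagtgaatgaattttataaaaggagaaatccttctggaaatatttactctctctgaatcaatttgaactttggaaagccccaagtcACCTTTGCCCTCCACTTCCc
Ccl6: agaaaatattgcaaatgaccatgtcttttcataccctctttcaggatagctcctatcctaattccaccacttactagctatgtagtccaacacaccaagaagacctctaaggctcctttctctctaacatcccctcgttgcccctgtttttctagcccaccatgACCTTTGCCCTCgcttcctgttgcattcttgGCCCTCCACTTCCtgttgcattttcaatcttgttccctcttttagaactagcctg
Ccl3: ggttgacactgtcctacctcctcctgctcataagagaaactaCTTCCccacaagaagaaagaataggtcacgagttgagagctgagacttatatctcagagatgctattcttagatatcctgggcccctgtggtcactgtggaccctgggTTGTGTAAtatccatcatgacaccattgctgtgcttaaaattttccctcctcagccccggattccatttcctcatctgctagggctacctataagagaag

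The runs shared by Ccl6 and Ccl9 were ACCTTTGCCCTC, starting at position -86 in Ccl6 and -20 in Ccl9 counted from the start, and GCCCTCCACTTCC, starting at -55 in Ccl6 and -14 in Ccl9. In Ccl9 these runs overlap. Only this pair of windows was searched for shared runs, and how often other pairs share such runs was not measured. Over the whole windows Ccl6 and Ccl9 were 63.1% identical where aligned, against 67.0% for Ccl3 and Ccl6 and 59.1% for Ccl3 and Ccl9. Motif letters were searched on both strands. Ccl9 held an AP-1 match (TGANTCA, in 6.75% of the 32851 windows of the table) at -53 and an NF-kB match (in 7.25% of windows) at -35, which overlapped a C/EBP match (TTNNGNAA, in 36.8%) at -38. Ccl6 and Ccl3 held neither an AP-1 nor an NF-kB match. All 3 windows held the ETS core GGAAG, as did 64.1% of windows. None held a SMAD box (CAGAC, in 42.2%), a STAT site (TTCNNNGAA, in 7.02%) or GATAA (in 22.6%). The NFAT core GGAAA (in 55.6%) occurred in Ccl3 at -59 and -34 and in Ccl9 at -71 and -35, and not in Ccl6. Ccl9 alone held a TATA box match (TATAAA, in 12.4%), at -224, -94 and -92. It also held a C/EBP match at -75, and Ccl3 held 1 at -100.

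Ccl2 was by far the most abundant member in every library, at 80.7% to 88.7% of the 6 genes' counts. Levels per kilobase of exon allow a rough comparison of genes. The length merged all annotated exons, from 660 bp for Ccl4 to 3045 bp for Ccl9, whether or not these cells used them. On this scale SCF-treated cells averaged 1206 CPM per kb of Ccl2, 209 of Ccl7, 59.6 of Ccl3, 38.4 of Ccl4, 9.45 of Ccl6 and 1.26 of Ccl9. In IL-3 alone the same scale gave 890 CPM per kb of Ccl2, 71.2 of Ccl7, 29.4 of Ccl3, 24.3 of Ccl4, 19.97 of Ccl6 and 2.66 of Ccl9. The members together took 0.166% and 0.153% of gene counts with SCF and 0.0452% to 0.0674% with SCF and TGF-β. They took 0.0392% and 0.0396% with TGF-β alone, and 0.123% and 0.0992% in IL-3 alone. The lowest shares were therefore those of TGF-β alone, and the highest those of SCF alone.

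**Figure D1:**
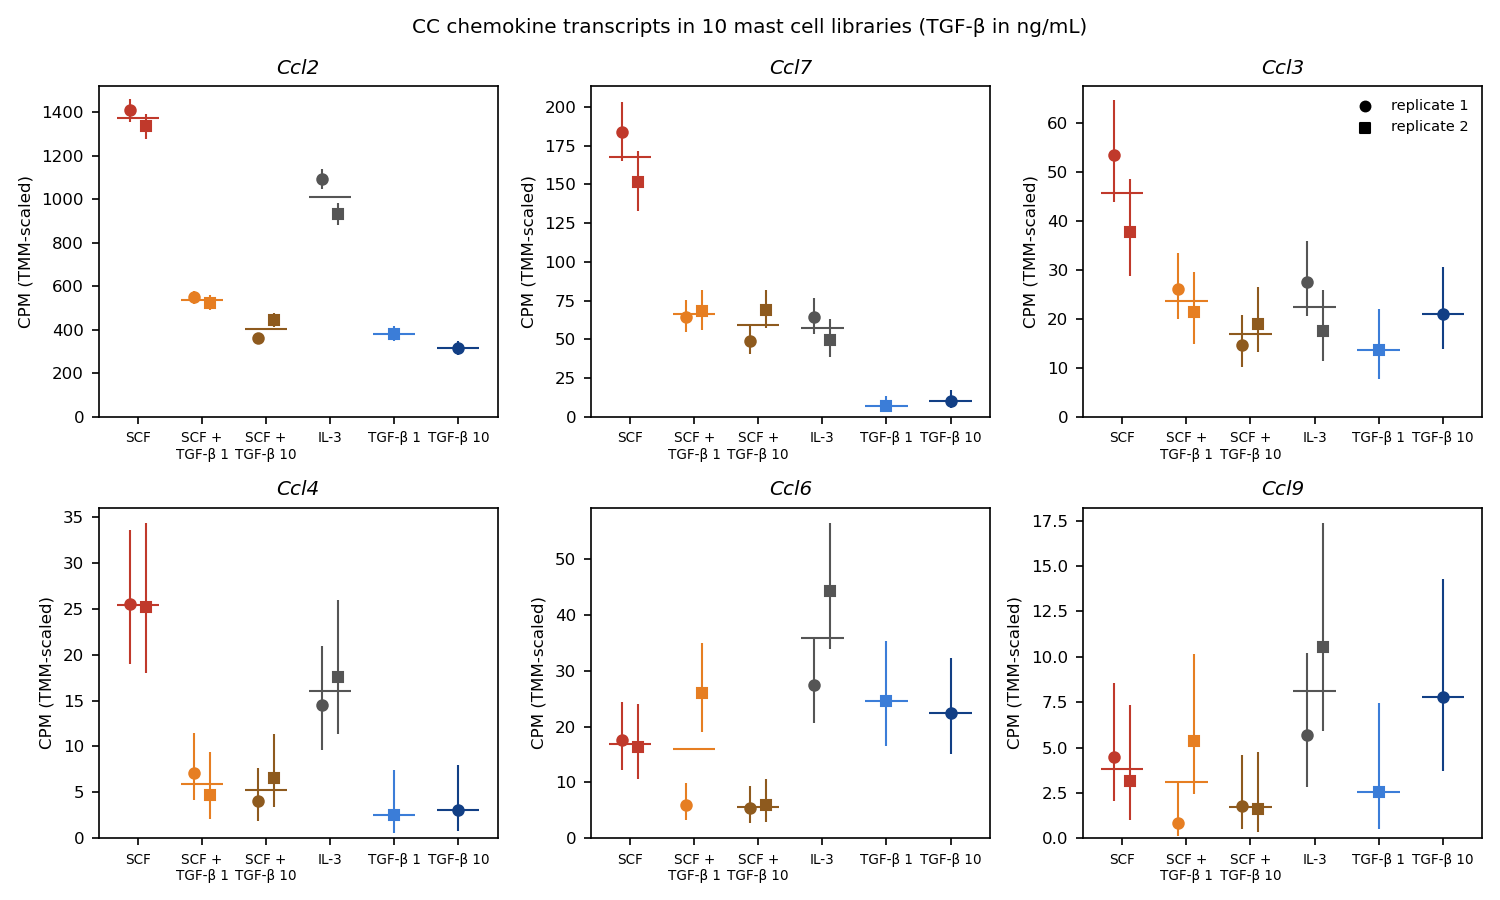
Level of each chemokine transcript in CPM (vertical axes, from 0) in the 10 libraries by group, with TGF-β doses in ng/mL; circles and squares are libraries by replicate number, bars are 95% Poisson intervals of the counts and horizontal lines are group means. Ccl2, Ccl7, Ccl3 and Ccl4 were highest with SCF alone, while Ccl6 was highest in IL-3 alone, at 27.5 and 44.2 CPM.

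The first comparison asked what SCF added to cells growing in IL-3. Ccl7 and Ccl3 rose, and the other members did not pass the test, with log2 fold changes of 0.44 for Ccl2, 0.67 for Ccl4, -1.05 for Ccl6 and -1.01 for Ccl9. The count was 2 of 6 members higher and none lower, where 5.71% of the 11247 tested genes were higher and 3.46% lower at an adjusted p under 0.05 (edgeR quasi-likelihood test, Benjamini-Hochberg over all tested genes). The median log2 fold change of the members was 0.55, against -0.02 for all tested genes.

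Ccl7 had 184 and 151 CPM in SCF-treated cells and 64.3 and 49.8 CPM in IL-3 alone. Both SCF libraries lay above both IL-3 libraries, a log2 fold change of 1.54 ± 0.19 (SE; adjusted p = 0.000118), and the call held in all 17 alternative fits. Ccl3 had 53.6 and 37.8 CPM with SCF and 27.5 and 17.5 CPM in IL-3 alone. The groups did not overlap, and the log2 fold change was 1.00 ± 0.27 (adjusted p = 0.0299). Ccl3 was no longer called in DESeq2 (adjusted p = 0.162), without replicate 2 of IL-3 (0.253) or without replicate 1 of SCF (0.216), and each of these left 1 member called.

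Ccl2 had 1410 and 1336 CPM with SCF and 1094 and 932 CPM in IL-3 alone. These libraries did not overlap either, yet the log2 fold change of 0.44 ± 0.14 missed the threshold (adjusted p = 0.0526). It passed without the filter on low counts (0.0172). In that fit Ccl6 passed too, as lower (-1.03, adjusted p = 0.0223), and 4 members were called. Ccl4 had 25.5 and 25.2 CPM with SCF and 14.5 and 17.5 CPM in IL-3 alone (0.67 ± 0.33, adjusted p = 0.225).

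Ccl6 had 17.5 and 16.4 CPM with SCF and 27.5 and 44.2 CPM in IL-3 alone. Both SCF libraries lay below both IL-3 libraries, and the log2 fold change of -1.05 ± 0.43 did not pass (adjusted p = 0.146; 0.0223 to 0.559 over the alternatives). Ccl9, with 5 to 15 counts per library in these groups, had 4.51 and 3.15 CPM with SCF and 5.70 and 10.5 CPM in IL-3 alone (-1.01 ± 0.66, adjusted p = 0.388). Neither difference passed the test at this depth.

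**Figure D2:**
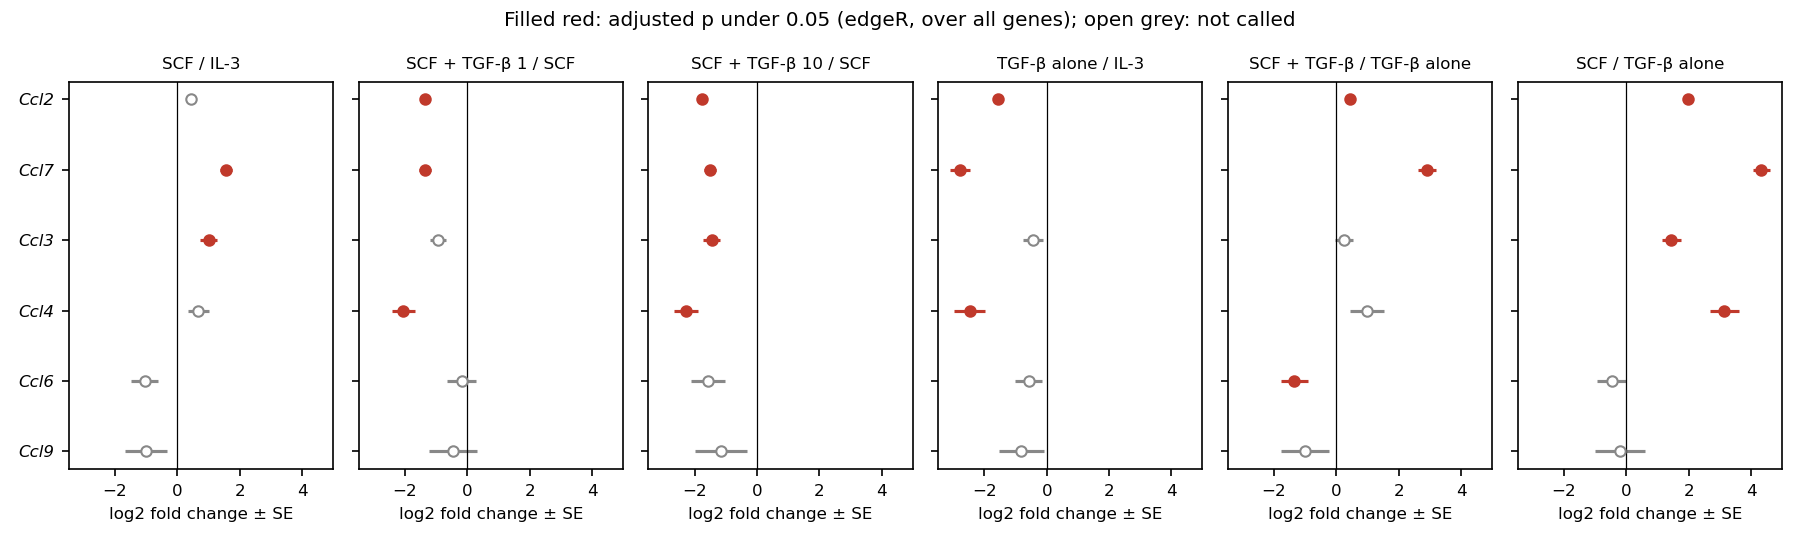
Log2 fold change ± SE (horizontal axes) of each member in 6 comparisons, each with the first-named group over the second, and with TGF-β doses in ng/mL; filled red points passed an adjusted p under 0.05 over all genes and open grey points did not. Ccl2, Ccl7 and Ccl4 were lower with TGF-β at either dose and without SCF, and Ccl9 passed in no panel.

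TGF-β was next set against SCF alone in cells given both. Ccl2, Ccl7 and Ccl4 fell at both doses and Ccl3 at 10 ng/mL. At 1 ng/mL 3 of 6 members were lower and none higher, where 2.75% of tested genes were lower and 1.89% higher. At 10 ng/mL 4 of 6 were lower and none higher, where 4.59% of tested genes were lower and 3.78% higher. The members' median log2 fold change was -1.14 at 1 ng/mL, against 0.01 for all tested genes, and -1.55 at 10 ng/mL, against -0.000533 for all. Both comparisons share the SCF libraries. Mast cell markers moved too: their sum was 77056 to 90369 CPM with SCF alone, 56365 to 67784 CPM at 1 ng/mL and 54444 to 62159 CPM at 10 ng/mL, and 3 of 8 were lower at 1 ng/mL and 4 at 10 ng/mL. Among them Hdc, the histamine-forming enzyme, was lower by log2 fold changes of -2.03 ± 0.24 (adjusted p = 5.21e-05) and -1.82 ± 0.23 (adjusted p = 6.64e-05). The dendritic cell markers summed to 0.630 and 1.502 CPM with SCF alone, 8.00 to 11.3 CPM at 1 ng/mL and 9.77 to 17.4 CPM at 10 ng/mL. Itgax (CD11c) made up most of the sums with TGF-β, while Xcr1 and Siglech had no counts in any library. Their part in the chemokine values was not tested.

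Ccl2, the dominant transcript, had 1410 and 1336 CPM with SCF alone, 549 and 525 CPM after adding 1 ng/mL TGF-β, and 361 and 445 CPM at 10 ng/mL. The 3 groups did not overlap. The log2 fold change against SCF was -1.35 ± 0.14 at 1 ng/mL (adjusted p = 1.56e-05) and -1.77 ± 0.14 at 10 ng/mL (adjusted p = 5.68e-07).

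Ccl7 had 184 and 151 CPM with SCF alone, 64.4 and 68.3 CPM at 1 ng/mL TGF-β, and 49.2 and 69.0 CPM at 10 ng/mL. The libraries of the 2 doses overlapped each other and lay below SCF alone. The log2 fold change was -1.34 ± 0.19 at 1 ng/mL (adjusted p = 0.000309) and -1.52 ± 0.19 at 10 ng/mL (adjusted p = 6.04e-05). With TGF-β added, Ccl7 stood close to its 64.3 and 49.8 CPM in IL-3 alone, a pair of groups that was not tested.

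Ccl4 had 25.5 and 25.2 CPM with SCF alone, 7.16 and 4.75 CPM at 1 ng/mL TGF-β, and 4.02 and 6.52 CPM at 10 ng/mL. The log2 fold change was -2.04 ± 0.36 at 1 ng/mL (adjusted p = 0.00235) and -2.28 ± 0.37 at 10 ng/mL (adjusted p = 0.000715), on 8 to 17 counts per library with TGF-β. Ccl3 had 53.6 and 37.8 CPM with SCF alone, 26.1 and 21.4 CPM with 1 ng/mL and 14.7 and 19.0 CPM with 10 ng/mL. Its log2 fold change was -0.94 ± 0.27 at 1 ng/mL (adjusted p = 0.0532) and -1.45 ± 0.28 at 10 ng/mL (adjusted p = 0.0027). The first passed in 5 of 17 alternatives, and the second failed without replicate 1 of SCF (0.0618) or replicate 1 of SCF plus TGF-β at 10 ng/mL (0.0572).

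Ccl6 did not follow the others at 1 ng/mL. It had 17.5 and 16.4 CPM with SCF alone, 5.90 and 26.1 CPM at 1 ng/mL TGF-β, and 5.36 and 5.97 CPM at 10 ng/mL. At 1 ng/mL the replicates lay on either side of SCF alone (log2 fold change -0.18, adjusted p = 0.911), and the sign turned (0.63) without replicate 1. At 10 ng/mL both libraries were lower, by a log2 fold change of -1.58 ± 0.54 (adjusted p = 0.0901), which passed in 5 of 17 alternatives. Ccl9 split the same way in its point values, with 4.51 and 3.15 CPM in SCF alone, 0.842 and 5.34 CPM at 1 ng/mL, and 1.79 and 1.63 CPM at 10 ng/mL. These rest on 2 to 9 counts per library. The 95% Poisson intervals at 1 ng/mL overlapped, at 0.102 to 3.04 CPM and 2.44 to 10.1 CPM. Ccl9 was not called at either dose (adjusted p = 0.848 at 1 ng/mL and 0.492 at 10 ng/mL).

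The macrophage markers were not level between the 2 libraries that split. Replicate 2 of SCF plus TGF-β at 1 ng/mL, with the higher Ccl6 and Ccl9, had 28.5 CPM summed over the 15 markers, and replicate 1 had 16.0 CPM. In replicate 2 the lysozyme gene Lyz2 had 7.72 CPM and the F4/80 gene Adgre1 8.90 CPM, against 1.68 CPM and 2.11 CPM in replicate 1, on 4 to 15 counts each. These 2 markers, chosen after their values were seen, made up the difference, since Csf1r had 9.50 CPM in replicate 2 and 8.42 CPM in replicate 1, and Cd14 1.78 CPM and 2.11 CPM. Lyz2 was at 1.34 and 1.09 CPM in the group of SCF plus 10 ng/mL TGF-β, where Ccl6 was also low. It was at 16.5 and 13.2 CPM with SCF alone, 11.0 and 4.66 CPM with TGF-β alone and 20.2 and 14.7 CPM in IL-3 alone. Adgre1 and Csf1r did not follow Ccl6 there: in SCF plus 10 ng/mL TGF-β they had 4.47 and 1.63 CPM and 10.3 and 10.9 CPM, against 2.50 and 3.78 CPM and 12.5 and 7.56 CPM in SCF alone. The marker sums were 27.7 to 38.05 CPM for SCF, 17.4 to 21.4 CPM for SCF plus 10 ng/mL TGF-β, 29.7 and 25.6 CPM with TGF-β alone and 35.1 to 37.3 CPM in IL-3 alone. The part of such cells in the Ccl6 and Ccl9 values was not tested.

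**Figure D3:**
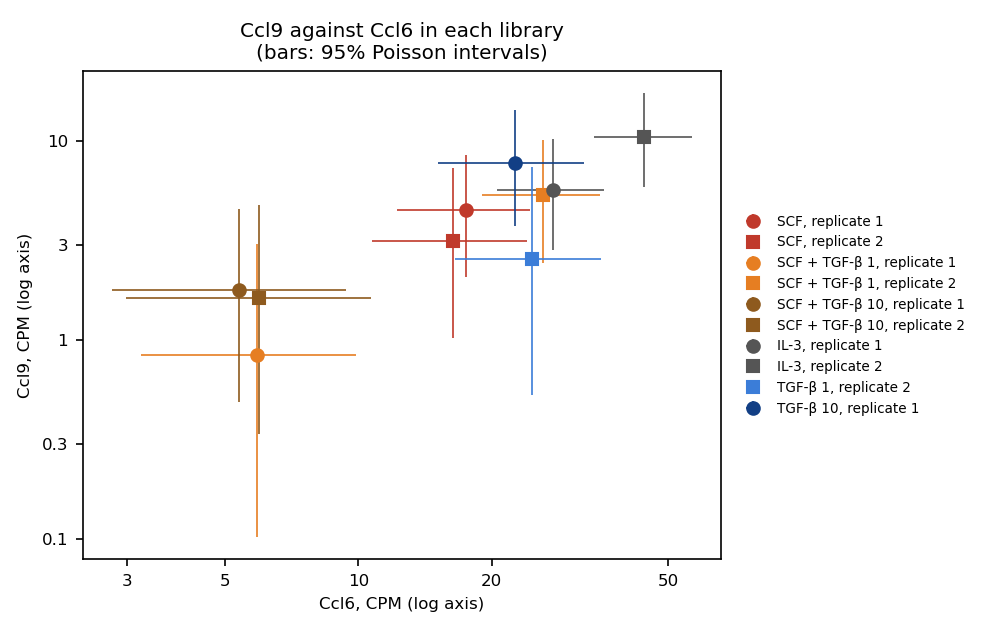
Ccl9 against Ccl6 in CPM (both axes logarithmic) in each of the 10 libraries, coloured by group with circles for replicate 1 and squares for replicate 2; bars are 95% Poisson intervals. The low corner holds both libraries of SCF plus TGF-β at 10 ng/mL and replicate 1 of SCF plus TGF-β at 1 ng/mL, and replicate 2 at 1 ng/mL, at 26.1 CPM of Ccl6, lies with the libraries without SCF.

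Between the doses themselves, 10 against 1 ng/mL TGF-β with SCF, 0 of 6 members passed in edgeR and 0 in DESeq2, where 0.0178% of tested genes passed. At an unadjusted p under 0.05 there were 2 members, Ccl2 (-0.42 ± 0.14) and Ccl6 (-1.40 ± 0.55), where 2.78% of tested genes met it, and their adjusted p was 1.00 for each. Ccl2 had 361 and 445 CPM at 10 ng/mL against 549 and 525 CPM at 1 ng/mL.

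TGF-β without SCF was compared with IL-3 alone as the mean of its 2 single libraries, whose spread was taken from the other groups. Ccl2, Ccl7 and Ccl4 were lower, 3 of 6 members, where 2.12% of tested genes were lower and 1.36% higher, and no member was higher. The members' median log2 fold change was -1.18, against -0.02 for all tested genes. Values with TGF-β alone are given for 1 ng/mL and then 10 ng/mL. The 1 ng/mL library is numbered replicate 2 and the 10 ng/mL library replicate 1, so dose and replicate number cannot be told apart there. Mast cell markers summed to 53425 and 53548 CPM with TGF-β alone and 64024 to 66932 CPM in IL-3 alone, with 3 of 8 lower and 1 higher, and dendritic cell markers to 21.2 and 41.2 CPM, against 2.11 to 3.63 CPM. Gene counts were 16.4% and 20.5% of all counted reads with TGF-β alone, 23.0% and 19.9% in IL-3 alone and 23.2% to 26.6% in the 6 libraries with SCF. The 10 highest genes took 35.9% and 27.7% of gene counts with TGF-β alone, 28.3% and 32.3% in IL-3 alone and 24.4% to 25.5% with SCF. The part of these differences in the comparisons across them was not tested.

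Ccl2 had 381 and 316 CPM with TGF-β alone and 1094 and 932 CPM in IL-3 alone (log2 fold change -1.55 ± 0.14, adjusted p = 5.47e-06). Ccl7 had 6.79 and 10.1 CPM with TGF-β alone, on 8 and 13 counts, and 64.3 and 49.8 CPM in IL-3 alone (-2.79 ± 0.31, adjusted p = 4.59e-05). Both were below IL-3 alone in both libraries, and both calls held in all 17 alternatives. Ccl4 had 2.55 and 3.11 CPM with TGF-β alone, on 3 and 4 counts, and 14.5 and 17.5 CPM in IL-3 alone (-2.47 ± 0.50, adjusted p = 0.00925). Its call was lost in DESeq2 (0.0691) and without the 1 ng/mL library (0.0626) or the 10 ng/mL library (0.073).

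Ccl3 had 13.6 and 21.0 CPM with TGF-β alone and 27.5 and 17.5 CPM in IL-3 alone, which overlap (adjusted p = 0.588). Ccl6 had 24.6 and 22.5 CPM against 27.5 and 44.2 CPM (adjusted p = 0.577), and Ccl9 had 2.55 and 7.77 CPM against 5.70 and 10.5 CPM (adjusted p = 0.656). Of the pair Ccl3 and Ccl4, only Ccl4 passed in this comparison. Whether the 2 genes differed was not tested.

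SCF was then compared within TGF-β. With SCF, 2 of 6 members were higher and 1 lower than with TGF-β alone (means of both doses), where 13.3% of tested genes were higher and 11.4% lower. Ccl7 had 64.4, 68.3, 49.2 and 69.0 CPM with SCF and TGF-β and 6.79 and 10.1 CPM with TGF-β alone. All 4 libraries with SCF stood above both without it (log2 fold change 2.90 ± 0.28, adjusted p = 3.22e-06), and the call held in all 17 alternatives. Ccl2 had 549, 525, 361 and 445 CPM with SCF and TGF-β and 381 and 316 CPM with TGF-β alone. These overlap, and the small log2 fold change of 0.42 ± 0.13 (adjusted p = 0.0202) was lost without replicate 2 of SCF plus TGF-β at 10 ng/mL (0.0792) or without the 10 ng/mL library of TGF-β alone (0.237).

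Ccl6 was the member that was lower. It had 5.90, 26.1, 5.36 and 5.97 CPM with SCF and TGF-β and 24.6 and 22.5 CPM with TGF-β alone, a log2 fold change of -1.35 ± 0.44 (adjusted p = 0.0323). Of the 4 libraries with SCF 3 lay below both without it and 1 above, and the call was lost in 6 of 17 alternatives, over which the log2 fold change ran from -2.001 to -0.93. Leaving out replicate 2 of SCF plus TGF-β at 10 ng/mL, or the 10 ng/mL library of TGF-β alone, ended the calls of both Ccl2 and Ccl6 and left 1 member called. Ccl3 (0.25, adjusted p = 0.586), Ccl4 (0.98 ± 0.53, adjusted p = 0.191) and Ccl9 (-0.999, adjusted p = 0.372) did not pass.

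SCF alone was also set against TGF-β alone. Against TGF-β alone, 4 of 6 members were higher with SCF and none lower, where 12.1% of tested genes were higher and 8.97% lower. The members' median log2 fold change was 1.71, against -0.01 for all tested genes. The values were 4.33 ± 0.28 for Ccl7 (adjusted p = 3.56e-08), 3.14 ± 0.47 for Ccl4 (adjusted p = 0.000173), 1.98 ± 0.14 for Ccl2 (adjusted p = 1.12e-07) and 1.44 ± 0.31 for Ccl3 (adjusted p = 0.00307; 0.0573 without the 1 ng/mL library). Ccl6 (-0.47, adjusted p = 0.522) and Ccl9 (-0.20, adjusted p = 0.895) did not pass.

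The interaction term asked whether TGF-β changed a member by a different log2 amount with SCF than without it. It passed for 0 of 6 members in edgeR, where 0.293% of tested genes passed, and for 0 of the 3 that had an adjusted p in DESeq2. At an unadjusted p under 0.05 there was 1 member, where 9.15% of tested genes met it. It was Ccl7 (1.36 ± 0.37, adjusted p = 0.218), whose TGF-β effect was -1.34 and -1.52 with SCF at the 2 doses and -2.79 without it. Its adjusted p ranged from 0.0467, without the filter on low counts, to 0.573 over the alternatives. The term was -0.02 ± 0.18 for Ccl2, the most precisely measured member.

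The balance between neighbouring genes gave each library its own measure, free of library scaling. Ccl7 made up 10.2% to 13.4% of the counts of Ccl7 and Ccl2 in the 6 libraries with SCF. It made up 1.75% (exact binomial 95% interval 0.759% to 3.42%) and 3.10% (1.66% to 5.23%) with TGF-β alone, and 5.55% (4.63% to 6.58%) and 5.08% (3.98% to 6.36%) in IL-3 alone. As point values the 3 ranges did not overlap, and the share was highest in the 6 libraries with SCF, whether or not TGF-β was added. The interval of TGF-β alone at 10 ng/mL, on 13 Ccl7 counts, overlapped both intervals of IL-3 alone. Ccl4 made up 32.3% and 40.0% of the counts of Ccl4 and Ccl3 with SCF, 18.2% to 25.5% with SCF and TGF-β, 15.8% and 12.9% with TGF-β alone, and 34.6% and 50% in IL-3 alone. Here the 6 libraries with TGF-β lay below the 4 without it, but their intervals overlapped, as for 25.5% (13.9% to 40.3%) in replicate 2 of SCF plus TGF-β at 10 ng/mL and 32.3% (25.1% to 40.2%) in replicate 1 of SCF. TGF-β alone rested on 3 and 4 Ccl4 counts. Ccl9 made up 9.38% to 25.6% of the counts of Ccl9 and Ccl6, with overlapping groups.

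**Figure D4:**
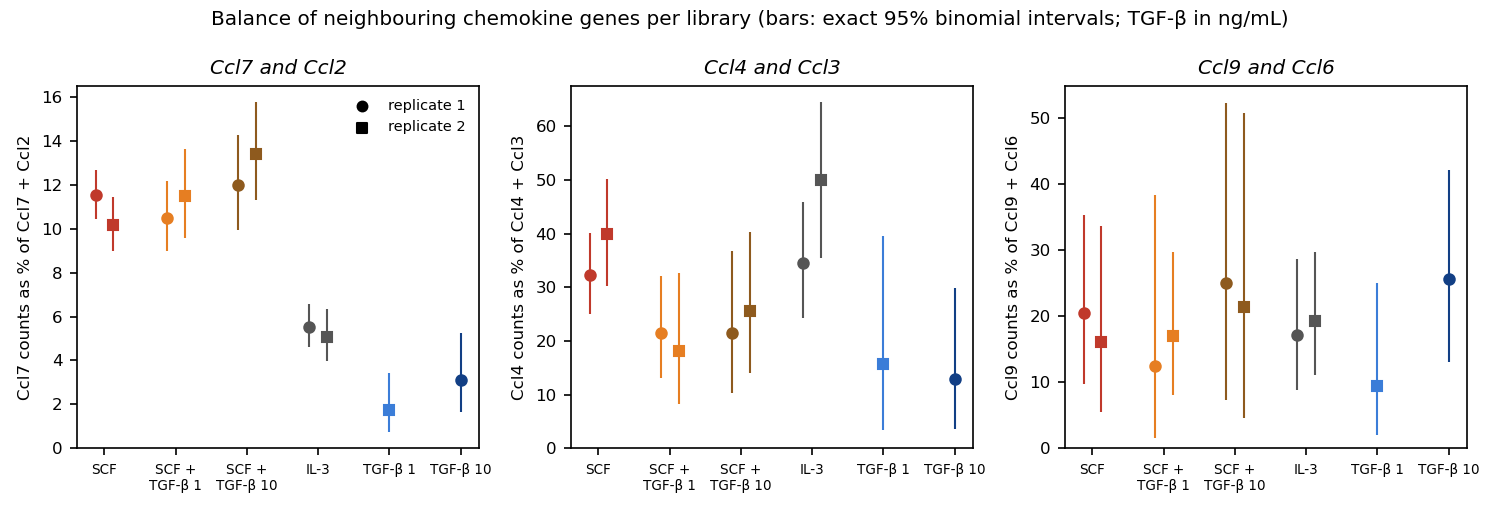
Counts of Ccl7, Ccl4 and Ccl9 as a percentage of the counts of each gene with its neighbour (vertical axes, from 0) in the 10 libraries by group, with TGF-β doses in ng/mL; bars are exact 95% binomial intervals. The share of Ccl7 was 10.2% to 13.4% in the 6 libraries with SCF and at most 5.55% in the others.

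Across the 10 libraries, as a description, the log2 CPM of Ccl2 and Ccl4 had a Pearson correlation of 0.97, that of Ccl6 and Ccl9 0.88, that of Ccl2 and Ccl3 0.78 and that of Ccl2 and Ccl7 0.75. Ccl6 stood apart from Ccl7 (-0.22) and Ccl3 (0.05). These points share the 6 groups and the library scaling. Among 6080 protein-coding genes averaging 20 CPM or more, the patterns most like Ccl2 over the 10 libraries were those of Gzmb (0.99), Lrmp (0.99) and Fermt3 (0.98). For Ccl7 they were Bzw1 (0.98), Furin (0.97) and Avil (0.97), and for Ccl4 Dhrs1 (0.98), Lrmp (0.98) and Mindy1 (0.98). For Ccl3 they were Ndufv3 (0.97), Atox1 (0.93) and Aldh3a1 (0.93), for Ccl6 Fli1 (0.93), Hipk3 (0.93) and Gtf2e1 (0.91), and for Ccl9 Pomt2 (0.90), Akap9 (0.87) and Tnrc6c (0.87). With 6080 candidates and 10 libraries, unrelated genes can also reach high correlations, and none of these likenesses was tested. Ccl9 had only 2 to 15 counts per library.

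The receptors were also read. Of 24 chemokine receptor genes 8 were tested. Ccr1, a receptor of Ccl3, Ccl6 and Ccl9, had 173 and 165 CPM with SCF, 74.5 and 60.5 CPM with 1 ng/mL TGF-β added and 43.3 and 38.6 CPM with 10 ng/mL. It had 23.8 and 16.3 CPM with TGF-β alone and 57.5 and 87.0 CPM in IL-3 alone. It was higher with SCF than in IL-3 alone (1.24 ± 0.19, adjusted p = 0.00068), lower with TGF-β added to SCF (at 1 ng/mL -1.31 ± 0.19, adjusted p = 0.000377; at 10 ng/mL -2.04 ± 0.20, adjusted p = 4.76e-06) and lower with TGF-β alone than in IL-3 alone (-1.85 ± 0.26, adjusted p = 0.000364). These calls held in all 17 alternatives, which were applied to the receptors after the data were seen. Ccr2, a receptor of Ccl2 and Ccl7, was at 0 to 9 counts per library and was not tested.

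Among the other receptors, Cx3cr1, the receptor of fractalkine, had 168 and 75.0 CPM with SCF and 358 and 394 CPM in IL-3 alone (-1.61 ± 0.25, adjusted p = 0.000796). It had 712 and 773 CPM with TGF-β alone (0.98 ± 0.24 against IL-3, adjusted p = 0.0278), a call lost in DESeq2 (0.383) and in each of the 4 fits without an IL-3 or a TGF-β library (0.0634 to 0.218). Ccrl2, an atypical receptor of chemerin, had 13.0 and 13.9 CPM with SCF and 31.1 and 28.1 CPM in IL-3 alone (-1.14 ± 0.29, adjusted p = 0.0192), and was lost without any 1 of these 4 libraries (0.0784 to 0.0992). The decoy receptor Ackr1 had 72.1 and 68.4 CPM with TGF-β alone and 126 and 130 CPM in IL-3 alone (-0.87 ± 0.19, adjusted p = 0.0174; 0.0684 to 0.131 without 1 of these libraries). Counted over the 8 tested receptors, 1 was higher and 2 lower with SCF against IL-3, 0 higher and 2 lower with 1 ng/mL TGF-β added, 0 and 3 with 10 ng/mL, and 1 and 2 with TGF-β alone against IL-3. Against TGF-β alone, 1 was higher and 4 lower for SCF plus TGF-β, and 2 and 1 for SCF. The shares of all tested genes, higher and then lower, were 5.71% and 3.46% for SCF against IL-3. They were 1.89% and 2.75% with 1 ng/mL TGF-β added, 3.78% and 4.59% with 10 ng/mL, and 1.36% and 2.12% with TGF-β alone against IL-3. Against TGF-β alone they were 13.3% and 11.4% for SCF plus TGF-β, and 12.1% and 8.97% for SCF. Between the doses and for the interaction no receptor passed in edgeR, where 0.0178% and 0.293% of tested genes did.

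**Figure D5:**
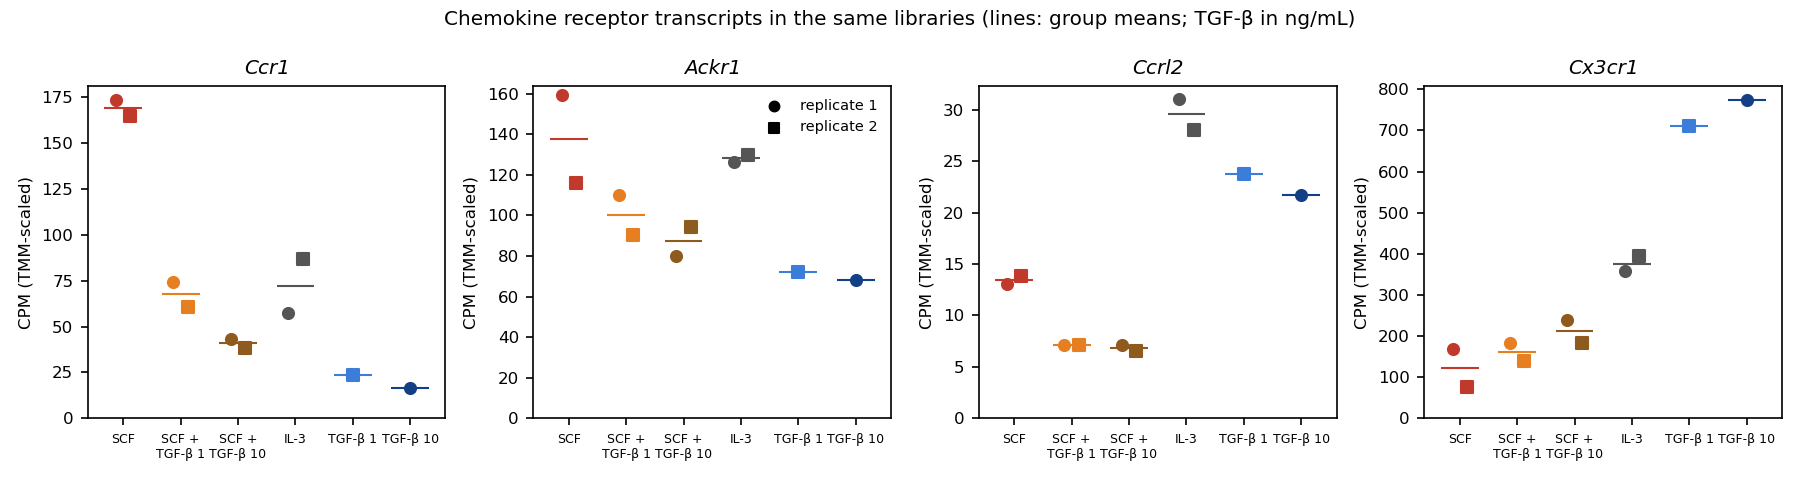
Level of Ccr1, Ackr1, Ccrl2 and Cx3cr1 transcripts in CPM (vertical axes, from 0) in the 10 libraries by group, with TGF-β doses in ng/mL; circles and squares are libraries by replicate number and lines are group means. Ccr1 was highest with SCF at 173 and 165 CPM, and Cx3cr1 with TGF-β alone at 712 and 773 CPM.

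Other chemokine ligands were low. Of 28 further chemokine genes, 14 had no counts in any library and none had a group mean above 20 CPM, and together they summed to 13.7 to 34.4 CPM per library. The highest were Ccl25 (up to 14.4 CPM), Cxcl12 (13.2 CPM) and Cx3cl1 (12.5 CPM), chosen after their values were seen, which were the 3 tested and lay above the highest Ccl9 level. Of these, 1 was higher with 10 ng/mL TGF-β added to SCF, 1 higher and 1 lower for SCF plus TGF-β against TGF-β alone, and 1 lower for SCF against TGF-β alone. None passed in edgeR in the other comparisons. Of immediate early and NF-kB genes 26 of 28 were tested. With SCF against IL-3 1 was higher and 2 lower, with TGF-β added to SCF 0 higher and 2 lower at 1 ng/mL and 1 higher and 4 lower at 10 ng/mL, and with TGF-β alone 0 higher and 1 lower. Against TGF-β alone, 1 was higher and 7 lower for SCF plus TGF-β, and 1 and 6 for SCF. Of all tested genes 5.71% were higher and 3.46% lower for SCF against IL-3. The shares were 1.89% and 2.75% at 1 ng/mL, 3.78% and 4.59% at 10 ng/mL, and 1.36% and 2.12% for TGF-β alone. Against TGF-β alone they were 13.3% and 11.4% for SCF plus TGF-β, and 12.1% and 8.97% for SCF. The replicates of the immediate early and NF-kB genes were not level. Replicate 1 exceeded replicate 2 for 23 of the 26 with SCF, 24 with 1 ng/mL TGF-β added, 22 with 10 ng/mL and 18 in IL-3 alone, where 49.8% to 50.7% of all tested genes did so. Fos had 370 and 202 CPM with SCF, 176 and 55.2 CPM with 1 ng/mL TGF-β added, 235 and 53.2 CPM with 10 ng/mL, and 398 and 149 CPM in IL-3 alone. Ccl2 and Ccl3 were each higher in replicate 1 in 3 of these 4 groups and the other members in fewer. Their relation to that difference was not tested.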

How the data were processed

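Full-length cDNA (SmartSeq2) of 10 BMMC libraries was sequenced after Nextera XT preparation, per the labels' protocols. The submitters' processing notes name STAR, HTSeq and DESeq2 with GRCm38; versions and strand setting: not given in the sources used here. Read counts for each gene, without normalization, were deposited by the authors. Reads outside genes were left out: gene counts were 16.4% to 26.6% of all counted. Of 49671 rows, 49326 had a symbol and locus in GENCODE vM21. edgeR 4.0.16 in R 4.3.3 was fitted (TMM, filterByExpr, 11247 genes tested, quasi-likelihood F test, 1 mean per group, 4 residual degrees of freedom) and tested on simulated data. SE is |log2 fold change| divided by the root of F. Calls used an adjusted p under 0.05. Alternatives were DESeq2 1.42.0, its size factors, other filters, protein-coding genes, only the compared groups, a replicate block and each library left out. Named were the 6 chemokines, the 3 genes most correlated with each, and some called members, at 20 CPM or more, of the lists. Chemokines and lists were chosen with earlier results of these data known.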

Additional observations from a re-analysis of the deposited data

How the results depend on the processing

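Over the alternatives, 735 values of single chemokines kept their direction and side of the threshold, 17 lost and 17 gained a call, and 23 changed sign, none of them called. With DESeq2, 458 genes were called for SCF against IL-3 (1 of the 3 chemokines with an adjusted p), 260 and 426 for 1 and 10 ng/mL TGF-β added to SCF, 0 between the doses, 223 for TGF-β alone, 1444 for the combination and 1145 for SCF, both against TGF-β alone, and 20 for the interaction, where edgeR called 1031, 522, 941, 2, 391, 2780, 2374 and 33. No filter gave 4 chemokines for SCF, with Ccl6 among them as lower, and 8 genes between doses. It gave 601 genes for TGF-β alone, and 125 genes and 1 chemokine for the interaction, whose Ccl2 term became 0.00401. The 10 CPM filter and the fit of only the compared groups gave 0 genes between doses, and that fit gave 712 for TGF-β alone. The replicate differences (log2 CPM of replicate 1 minus replicate 2 within a group) correlated at 0.197 to 0.231 between the groups with SCF. Between these groups and IL-3 alone they correlated at -0.00334 to 0.0215. The main fit did not take the numbers as pairs, although the groups with SCF shared part of the replicate difference. The replicate block called 859 genes at 1 ng/mL, 5 between doses, 718 for TGF-β alone and 102 for the interaction, whose Ccl9 term became -0.0509, and it brought Ccl2 for SCF (adjusted p = 0.00904), Ccl3 at 1 ng/mL (0.0163) and Ccl6 at 10 ng/mL (0.0209) past the threshold. Leaving out 1 library gave, in the order above, 237 to 1055, 252 to 540, 447 to 952, 0 to 5, 143 to 442, 1278 to 2799, 1296 to 2390 and 0 to 30 genes, with 1 to 3 chemokines for SCF against IL-3 and for the combination against TGF-β alone. It turned the sign of uncalled log2 values: at 1 ng/mL, Ccl6 ran from -1.51 to 0.63 and Ccl9 from -2.11 to 0.46; between doses, Ccl7 from -0.428 to 0.0602, Ccl4 from -0.59 to 0.11 and Ccl9 from -1.61 to 0.97; for the combination against TGF-β alone, Ccl3 from -0.0664 to 0.559; for SCF against TGF-β alone, Ccl9 from -0.99 to 0.60; for the interaction, Ccl2 from -0.15 to 0.11, Ccl6 from -0.95 to 0.12 and Ccl9 from -0.80 to 0.81. Low counts limit Ccl4, Ccl6 and Ccl9, and where a filter removed them no value was had. The causes were not tested.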
